A study of Solanum lycopersicum x Solanum pennellii and Solanum lycopersicum and Solanum pennellii with 31 samples.

Results

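Small RNAs (sRNAs) matching H06 were examined in pollen of 3 genotypes: the F1 of M82 and S. pennellii (4 libraries, 1 plant each), S. pennellii LA0716 (2 libraries) and M82 (2 libraries), all from plants of 2 months. These 8 pollen libraries were taken from the 31 libraries of the series by their labels, and each sRNA sequence was counted once per library. M82 is a cultivated tomato, S. pennellii a wild relative that crosses with it, and H06 a locus on chromosome 8 of the tomato genome (build SL2.50), where a seedling sRNA locus of the series lies at chr8:54487405-54487649. No gene annotation was used here, so the genes around it are not given. The 8 libraries held 86 H06 reads of 63 distinct sequences, 15 to 24 nucleotides (nt) long.

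Plant sRNAs of 24 nt are cut from double-stranded RNA by a Dicer-like enzyme and guide DNA methylation to matching sequences, in the pathway called RNA-directed DNA methylation. Paramutation is the transfer of such a silent state from one allele to the other in a hybrid, and H06 was studied as a locus of this kind. Each pollen grain carries 1 allele of each locus after meiosis, so that pollen of the F1 is a mixture of grains with the M82 allele and grains with the S. pennellii allele. The comparison of F1 pollen with that of its parents asks which H06 sRNAs are present in pollen of the hybrid, and which parental sequence they match.

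Most windows of H06 the length of an sRNA match the sequence of 1 parent only. The M82 sequence has 462 bases and the S. pennellii sequence 471, and their alignment of 473 positions holds 418 identical positions (88.4%), 42 substitutions and 13 gap positions. Of the windows of 24 bases, 395 of 439 in M82 and 404 of 448 in S. pennellii occur in that parent alone. The stretches of up to 120 bases with the most pollen reads are shown, although the comparisons were made over the whole of H06. Capitals mark bases under at least 1 pollen read, and positions count from the first base of each H06 sequence on its forward strand.
M82 H06, bases 25 to 144: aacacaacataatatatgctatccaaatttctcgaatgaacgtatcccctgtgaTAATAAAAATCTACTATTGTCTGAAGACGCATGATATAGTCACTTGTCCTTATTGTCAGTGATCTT
S. pennellii H06, bases 121 to 220: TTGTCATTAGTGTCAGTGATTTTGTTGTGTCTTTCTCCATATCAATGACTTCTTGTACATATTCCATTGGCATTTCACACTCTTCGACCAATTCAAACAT
The M82 stretch held 13 of the 29 pollen reads that match M82, of which 9 came from F1, 1 from S. pennellii and 3 from M82 pollen, and 66 of its 120 bases were covered. The densest S. pennellii stretch, bases 101 to 220, held 28 of the 59 pollen reads that match S. pennellii, of which 17 came from F1, 11 from S. pennellii and 0 from M82 pollen.

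Only 5 of the 63 sequences were found in more than 1 pollen library, 4 of them in 2 libraries and 1 in 3. They are shown as DNA letters, 5′ to 3′, with capitals at the bases that differ from the nearest site in the other parental sequence, compared without gaps.
S. pennellii alone, forward, bases 181 to 204: attccattggcatttcacActCtt
S. pennellii alone, forward, bases 271 to 294: gagaTAaaacgagacaaaagtagT
S. pennellii alone, forward, bases 380 to 403: aGatatgaCaccaaacaaagtaAc
S. pennellii alone, reverse, bases 112 to 131: aCtaaTgacaagtgactata
Both parents, reverse, bases 306 to 329 of M82: aatgatagtttatgtgtagtattc
The sequence at bases 181 to 204 differs at 2 bases from its nearest M82 site without gaps, and lies across a gap of the alignment. It had 1 read in F1 pollen replicate 1, 1 in F1 pollen replicate 2 and 1 in S. pennellii pollen replicate 1. No other sequence was in 3 pollen libraries. The sequence at bases 271 to 294 had 2 reads in F1 pollen replicate 2, against 3 in S. pennellii pollen replicate 2. The sequence at bases 380 to 403 had 2 reads in F1 pollen replicate 2, against 1 in S. pennellii pollen replicate 2. The 20-nt sequence had 1 read in F1 pollen replicate 4, against 1 in S. pennellii pollen replicate 1, and the sequence that matches both parents had 1 read in each S. pennellii library. Thus 4 of the 5 recurrent sequences were shared by F1 and S. pennellii pollen, and all 4 matched S. pennellii alone. They were 9.76% of the 41 sequences of F1 pollen and 18.2% of the 22 of S. pennellii pollen.

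The number of H06 reads was lowest in M82 pollen. F1 pollen had 16, 24, 5 and 10 reads in replicates 1 to 4, S. pennellii pollen 12 and 15, and M82 pollen 1 and 3. Both M82 libraries lay below every F1 and S. pennellii library, and the F1 libraries lay on either side of those of S. pennellii. F1 pollen averaged 13.75 ± 8.18 reads (SD, n = 4) and M82 pollen 2.00 ± 1.41 (SD, n = 2), a difference of 11.75 reads per library (two-sided exact permutation test, p = 0.133, the smallest that 4 against 2 libraries allow; adjusted p = 0.367 over 22 comparisons). S. pennellii pollen averaged 13.5 ± 2.12 reads (SD, n = 2), 11.5 more than M82 pollen (exact permutation test, p = 0.333, the smallest that 2 against 2 allow; adjusted p = 0.458). Per library, the pooled reads were 6.88 times as many in F1 as in M82 pollen (95% exact interval 2.54 to 26.1) and 6.75 times as many in S. pennellii as in M82 pollen (2.35 to 26.5).

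F1 and S. pennellii pollen did not differ detectably in reads. The difference was 0.25 reads per library (exact permutation test, p = 1, adjusted p = 1) and the ratio 1.02 (95% exact interval 0.632 to 1.68). Without F1 replicate 2, the library with the most reads, the difference was -3.17 reads, and it was also negative without F1 replicate 1 (-0.50) or S. pennellii replicate 1 (-1.25). Such intervals describe counting error alone. They leave out the spread between libraries, and PCR copies of 1 molecule may be counted more than once. The tables hold counts without library depths, so that fewer H06 sRNAs and a shallower library cannot be told apart, and in bulk pollen neither can fewer producing grains and less RNA per grain.

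**Figure D1:**
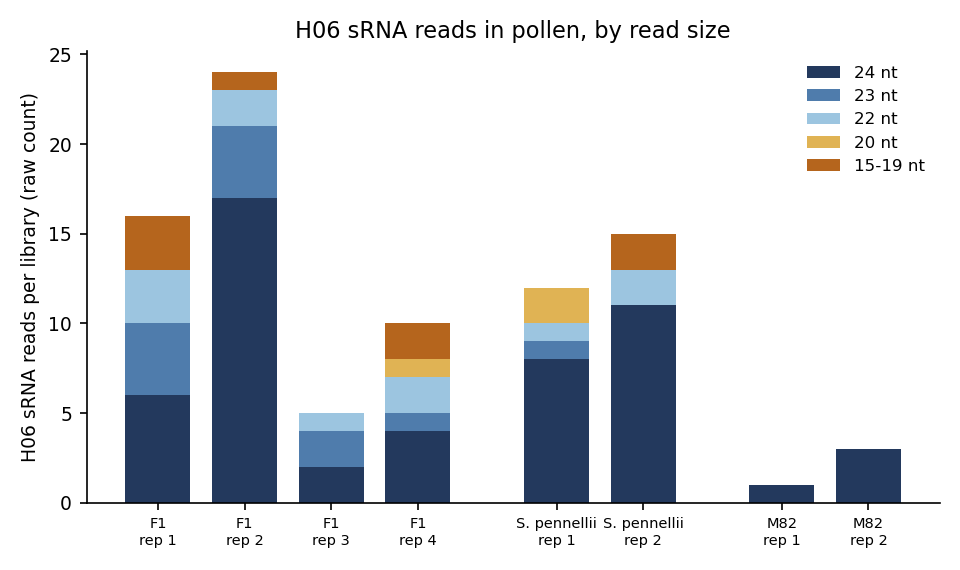
Bars give the raw number of H06 sRNA reads in each pollen library (y axis) of F1, S. pennellii and M82, stacked by read size. The F1 bars reach 16, 24, 5 and 10 reads, the S. pennellii bars 12 and 15, and the M82 bars 1 and 3, all of 24 nt.

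Most pollen reads were of 23-24 nt, the sizes of the methylation pathway. F1 pollen had 10, 21, 4 and 5 such reads, S. pennellii pollen 9 and 11, and M82 pollen 1 and 3. The M82 libraries were again the lowest, without overlap. F1 pollen averaged 8.00 reads of 23-24 nt more than M82 pollen (exact permutation test, p = 0.133, adjusted p = 0.367), which became 4.33 without F1 replicate 2, and S. pennellii pollen also 8.00 more (exact permutation test, p = 0.333, adjusted p = 0.458). F1 and S. pennellii pollen both averaged 10.0 (± 7.79, SD, n = 4, and ± 1.41, SD, n = 2), with a difference of 0 (exact permutation test, p = 0.933, adjusted p = 0.978) and a range of -3.67 to 2.00 when 1 library was left out.

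Within these sizes, reads of 23 nt were found in each F1 library and in 1 library of the parents. The reads of 24 nt were 6, 17, 2 and 4 in F1, 8 and 11 in S. pennellii, and 1 and 3 in M82 pollen, while those of 23 nt were 4, 4, 2 and 1 in F1, 1 and 0 in S. pennellii, and 0 and 0 in M82. In F1 replicate 3 the reads of 23 and 24 nt were equal in number, and in every other library those of 24 nt prevailed. The share of 24-nt reads was 37.5, 70.8, 40.0 and 40.0% in F1 pollen, 66.7 and 73.3% in S. pennellii pollen, and 100% in both M82 libraries, which rest on 1 and 3 reads. F1 replicate 2 overlapped the S. pennellii libraries and the other 3 F1 libraries lay below them. The F1 share (47.1 ± 15.9%, SD, n = 4) differed from that of S. pennellii (70.0 ± 4.71%, SD, n = 2) by -22.9 percentage points (exact permutation test, p = 0.267, adjusted p = 0.458) and from that of M82 by -52.9 points (p = 0.133 by the same exact test, adjusted p = 0.367). The S. pennellii share differed from that of M82 by -30.0 points (exact permutation test, p = 0.333, adjusted p = 0.458). When reads of 23 nt were counted with those of 24 nt, the difference of F1 from S. pennellii was -4.17 points (exact permutation test, p = 0.933) and that of F1 from M82 -30.0 points (p = 0.133 by the same exact test).

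Shorter reads were few. Reads of 22 nt, a size that can start the production of secondary sRNAs, numbered 3, 2, 1 and 2 in F1, 1 and 2 in S. pennellii, and 0 and 0 in M82 pollen. No pollen library held a read of 21 nt, the size of most plant microRNAs and of sRNAs that act on transcripts. Reads of 15 to 19 nt numbered 3, 1, 0 and 2 in F1, 0 and 2 in S. pennellii, and 0 and 0 in M82 pollen.

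Plant sRNAs of 24 nt that bind the effector AGO4 often begin with A. An A stood at the 5′ end of 17 of 55 reads in F1 pollen (30.9%), 12 of 27 in S. pennellii pollen (44.4%) and 2 of 4 in M82 pollen, against 21 of 41 in F1 flowers (51.2%). Per library these were 6, 7, 1 and 3 reads in F1, 4 and 8 in S. pennellii, and 1 and 1 in M82 pollen. A 5′ T was as frequent as A in F1 pollen, with 17 reads, and 5′ C followed with 13, of which 9 were in F1 replicate 2. These shares are over reads of every size and were not tested. Reads of 24 nt were 29 of the 55 in F1 pollen, 19 of the 27 in S. pennellii pollen, all 4 in M82 pollen and 26 of the 41 in F1 flowers.

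The strands were compared because sRNAs from double-stranded RNA come from both. Forward reads were 9, 15, 3 and 6 in F1, 5 and 8 in S. pennellii, and 1 and 2 in M82 pollen, or 56.2, 62.5, 60.0 and 60.0% of the reads in F1 libraries, 41.7 and 53.3% in S. pennellii libraries, and 100 and 66.7% in M82 libraries. The F1 libraries lay within a narrow range, although their 95% binomial (Clopper-Pearson) intervals were wide, from 14.7 to 94.7% in replicate 3 and from 40.6 to 81.2% in replicate 2. They lay above both S. pennellii libraries and below both M82 libraries. F1 pollen (59.7 ± 2.58%, SD, n = 4) was 12.2 points above S. pennellii pollen (47.5 ± 8.25%, SD, n = 2; exact permutation test, p = 0.133, adjusted p = 0.367), a difference that was 6.35 points without S. pennellii replicate 1 and 18 points without replicate 2. The difference of F1 from M82 pollen, -23.6 points (exact permutation test, p = 0.133, adjusted p = 0.367), was -6.98 without M82 replicate 1, which held 1 read. S. pennellii pollen differed from M82 pollen by -35.8 points (exact permutation test, p = 0.333, adjusted p = 0.458), and the difference was -52.5 without M82 replicate 2 and -19.2 without M82 replicate 1. Over reads of 23-24 nt the libraries of F1 overlapped those of both parents, with a difference of 13.9 points from S. pennellii (exact permutation test, p = 0.533) and -15.4 from M82 pollen (p = 0.400 by the same exact test). Over distinct sequences the difference from S. pennellii was 11.8 points (exact permutation test, p = 0.267).

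Both strands were read over the same aligned positions in 5 of the 8 pollen libraries, whichever allele the reads match. Positions with reads on both strands numbered 72, 61, 0 and 37 in F1, 22 and 54 in S. pennellii, and 0 and 0 in M82 pollen. Some of these positions join reads that match different parents. In F1 replicate 4, a forward S. pennellii-specific read at 402 to 425 lay over a reverse M82-specific read at 403 to 424. In F1 replicate 2, a forward M82-specific read at 105 to 128 lay over a reverse S. pennellii-specific read at 107 to 130. Positions with both strands of the same allele were not counted separately. A single pair of exactly complementary sRNAs was found, in F1 replicate 1 at bases 120 to 142 of M82, and no pair was offset by the 2-nt overhang that Dicer leaves.

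Mature flowers of the F1, also at 2 months, were compared with its pollen in the same measures, and the strands gave the smallest unadjusted p of the 22 comparisons. F1 flowers had 2, 2, 3 and 5 forward reads of 11, 4, 13 and 13, or 18.2, 50, 23.1 and 38.5%. Every F1 pollen library was above every F1 flower library. The mean was 59.7 ± 2.58% in F1 pollen and 32.4 ± 14.6% in F1 flowers (SD, n = 4 each), a difference of 27.3 points (two-sided exact permutation test, p = 0.0286, the smallest that 4 against 4 libraries allow), which did not pass after adjustment over the 22 comparisons (adjusted p = 0.367). The pooled shares were 33 of 55 reads in F1 pollen (60.0%, interval 45.9 to 73.0%) and 12 of 41 in F1 flowers (29.3%, 16.1 to 45.5%). Both intervals take reads as independent and leave out the spread between libraries, so they are no test of the difference. The difference was 18.6 points when each distinct sequence was counted once per library (exact permutation test, p = 0.0857) and 35.4 points over reads of 23-24 nt (exact permutation test, p = 0.0571), so that p was above 0.05 in both.

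**Figure D2:**
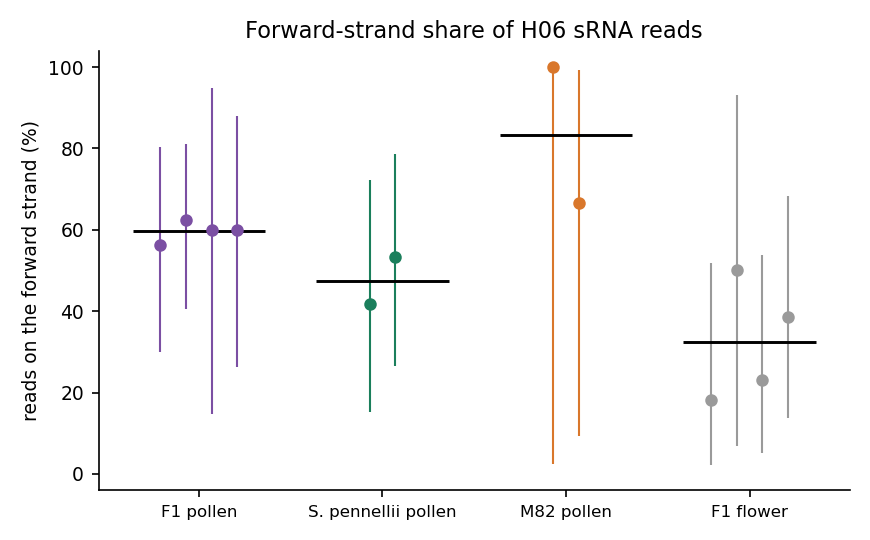
Points give the percentage of H06 reads on the forward strand (y axis) in each library of F1, S. pennellii and M82 pollen and of F1 flowers, vertical lines the 95% Clopper-Pearson intervals, and horizontal bars the group means. The 4 F1 pollen libraries sit between 56.2 and 62.5%, above the F1 flower libraries at 18.2 to 50%.

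Other measures of F1 pollen overlapped those of F1 flowers. Reads numbered 16, 24, 5 and 10 in pollen and 11, 4, 13 and 13 in flowers, a difference of 3.50 (exact permutation test, p = 0.514, adjusted p = 0.629) that was 0.083 without pollen replicate 2. The reads of 23-24 nt differed by 2.00 (exact permutation test, p = 0.771, adjusted p = 0.849) and by -1.67 without pollen replicate 2. The share of 24-nt reads differed by -22.7 points between F1 pollen and F1 flowers (exact permutation test, p = 0.171, adjusted p = 0.419), by -12.6 points without flower replicate 2, which held 4 reads, and by -12.0 points when 23-nt reads were included (exact permutation test, p = 0.371). Of the sequences, 4 were found in both tissues of the F1, 9.76% of the 41 in pollen and 12.1% of the 33 in flowers.

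The sRNAs were spread over H06 in F1 and S. pennellii pollen. Of the 473 aligned positions, F1 pollen libraries covered 141, 195, 116 and 128, S. pennellii pollen libraries 213 and 155, and M82 pollen libraries 24 and 72. The M82 libraries were the lowest and did not overlap the others. F1 pollen covered 145 ± 34.9 positions (SD, n = 4) and M82 pollen 48.0 ± 33.9 (SD, n = 2), a difference of 97.0 (exact permutation test, p = 0.133, adjusted p = 0.367), but counted on the M82 sequence alone the difference was 0. S. pennellii pollen covered 184 ± 41.0 (SD, n = 2), 136 more than M82 pollen (exact permutation test, p = 0.333, adjusted p = 0.458), which was 15 on the M82 sequence alone. F1 pollen differed from S. pennellii pollen by -39 positions (exact permutation test, p = 0.267, adjusted p = 0.458), by -10 without S. pennellii replicate 1 and by -68 without replicate 2. F1 pollen and F1 flowers differed by 7.75 positions (exact permutation test, p = 0.771, adjusted p = 0.849). This difference was -59.5 on the M82 sequence alone and 45.75 on the S. pennellii sequence alone. Covered positions rise with the number of reads, which was not adjusted for.

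Pooled over libraries, F1 pollen covered 315 positions (66.6%), S. pennellii pollen 285 (60.3%) and M82 pollen 76 (16.1%). In F1 pollen the depth was highest at aligned positions 429 to 436, with 12 reads, and in S. pennellii pollen at 148 to 153, with 6. In M82 pollen the depth reached 2, at 84 to 103, and no read lay from 133 to 401. The start of H06 was bare in both other genotypes, with no read at positions 1 to 43 in F1 pollen and 1 to 62 in S. pennellii pollen.

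When H06 was divided into 5 equal parts along the alignment, the second (95 to 189) and the last (379 to 473) held most reads of F1 pollen, 18 each of 55. S. pennellii pollen likewise had 9 and 8 of its 27 reads there. The last of the 5 parts held 3, 8, 2 and 5 reads in F1 pollen libraries and 3 and 5 in S. pennellii pollen libraries, against 2, 0, 1 and 1 in F1 flower libraries. These counts, set apart after the reads had been plotted, are a description and were not tested.

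**Figure D3:**
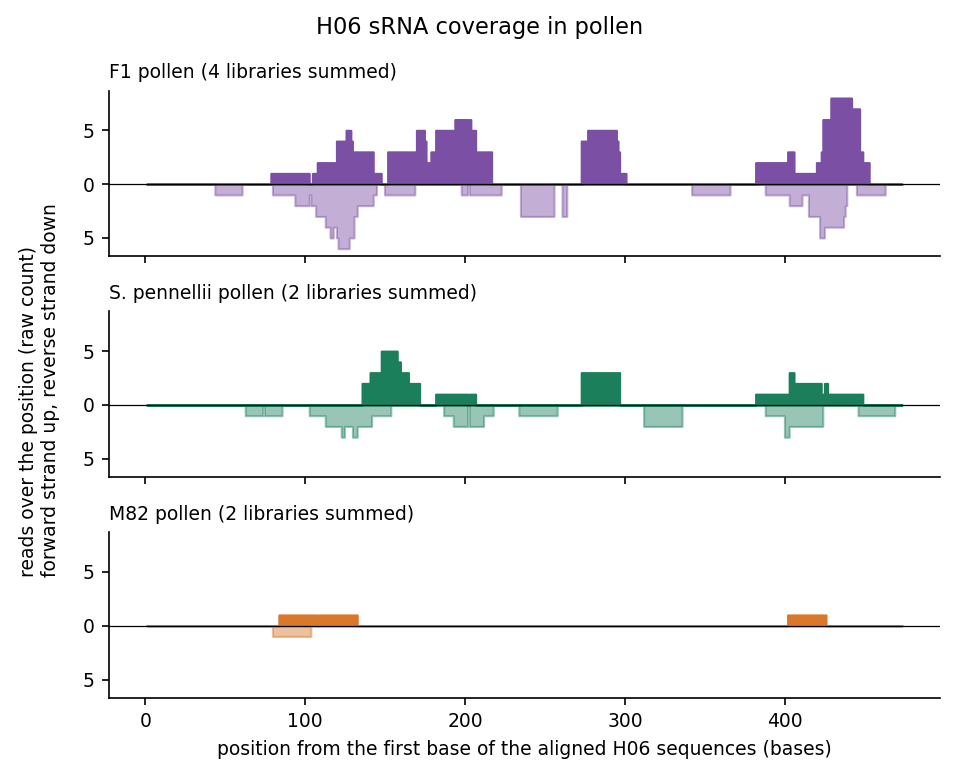
Height gives the number of H06 reads over each aligned position (raw count), summed over the libraries of F1 (4), S. pennellii (2) and M82 (2) pollen, with forward reads upward and reverse reads downward. Reads of F1 pollen gathered at positions 95 to 189 and 379 to 473, those of S. pennellii pollen lay over much of the same length, and those of M82 pollen covered 76 positions.

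The sequences of 23-24 nt with the most reads in F1 pollen were 1 in the last of these parts, matching S. pennellii alone, and 1 near the middle of H06, matching M82 alone. Both had 3 reads, all in F1 replicate 2, and capitals again mark bases that differ from the other parent.
S. pennellii alone, forward, bases 422 to 444: ttttagttCaagtagGGtgtcga
M82 alone, reverse, bases 234 to 257: atCttaactatatcattgcggatc
Neither was found in another pollen library, and the second differs from S. pennellii at 1 base only. Of the 41 F1 pollen sequences 30 had a single read, as had 18 of the 22 in S. pennellii pollen and all 4 in M82 pollen.

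Reads were then divided by the parental sequence they match. Reads matching M82 alone numbered 7, 5, 1 and 4 in F1 pollen, 1 and 5 in S. pennellii pollen, and 1 and 3 in M82 pollen. Reads matching S. pennellii alone numbered 9, 19, 4 and 6 in F1 pollen, 10 and 9 in S. pennellii pollen, and 0 and 0 in M82 pollen. Over all sizes each F1 library held more reads matching S. pennellii alone than M82 alone, and the M82-specific reads of F1 pollen overlapped those of both parents. Among the allele-specific reads of 23-24 nt, those matching M82 were 6 of 10, 4 of 21, 1 of 4 and 2 of 5 in F1 pollen (60.0, 19, 25 and 40.0%), and 0 of 8 and 3 of 10 in S. pennellii pollen (0 and 30.0%). At these sizes M82 matches were the more numerous in F1 replicate 1 and the fewer in the other 3.

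S. pennellii has no M82 allele, so a match to M82 alone does not by itself give the allele of origin, and its M82 reads in pollen give the background of this measure. In the S. pennellii flower library used here, 0 of 26 reads matched M82 alone, and 0 of 19 at 23-24 nt. The Clopper-Pearson intervals of these shares reach 13.2% and 17.6%. The F1 share overlapped that background: it averaged 36.0 ± 18.3% in F1 pollen (SD, n = 4) and 15 ± 21.2% in S. pennellii pollen (SD, n = 2), a difference of 21 points (exact permutation test, p = 0.400, adjusted p = 0.518). The difference was 6.01 points without S. pennellii replicate 1 and 36.0 points without replicate 2. In F1 flowers the M82 share was 62.5, 50, 87.5 and 63.6%, and F1 pollen differed from F1 flowers (65.9 ± 15.7%, SD, n = 4) by -29.9 points (exact permutation test, p = 0.0571, adjusted p = 0.367), with 1 pollen library, replicate 1, within the range of the flowers. Over reads of all sizes the difference was -30.4 points (exact permutation test, p = 0.0286, the smallest that 4 against 4 libraries allow, adjusted p = 0.314). Over distinct sequences of 23-24 nt it was -26.1 points (exact permutation test, p = 0.143, adjusted p = 0.393).

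**Figure D4:**
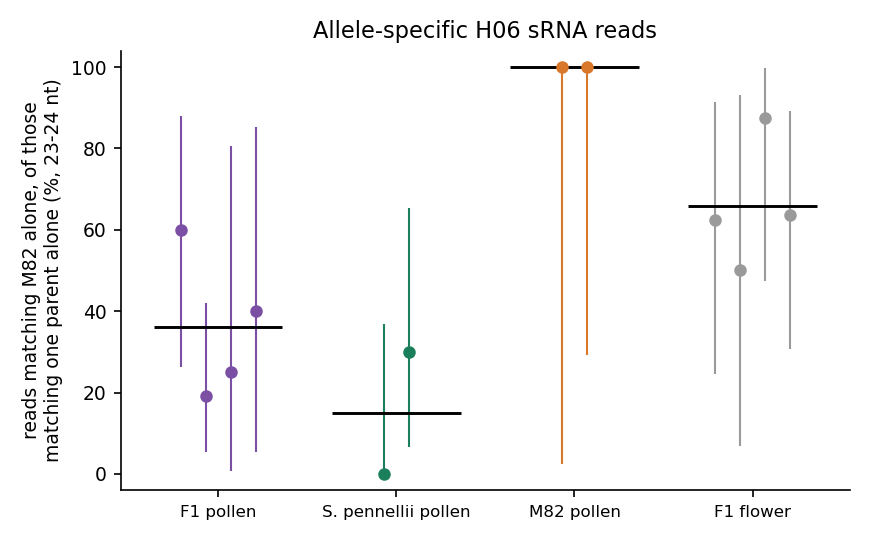
Points give the percentage of allele-specific H06 reads of 23-24 nt that match M82 alone (y axis) in each library of F1, S. pennellii and M82 pollen and of F1 flowers, with 95% Clopper-Pearson intervals as vertical lines and group means as horizontal bars. The F1 pollen libraries at 19 to 60.0% overlap the S. pennellii pollen libraries at 0 and 30.0%, and both M82 libraries are at 100%.

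The sequences behind the background are shown because they bear on every M82 read of F1 pollen. All 6 M82-specific reads of S. pennellii pollen came from 5 sequences, of which 3 lay within bases 389 to 415 of the M82 sequence. Each line names the pollen library, and its bases are those of the M82 sequence.
S. pennellii replicate 1, forward, bases 392 to 411: aGccaatattgtatttccat
S. pennellii replicate 2, forward, bases 392 to 415: aGccaatattgtatttccatgttt
S. pennellii replicate 2, reverse, bases 389 to 412: catggaaatacaatattggCtact
S. pennellii replicate 2, reverse, bases 377 to 391: actttgtttggtAtc
S. pennellii replicate 2, reverse, bases 123 to 141: atcactgacaAtaaGgaca
The third had 2 reads and the others 1. Only the last, of 19 nt, differed from the S. pennellii sequence at 2 bases, and the other 4 differed at 1. In F1 pollen the M82-specific reads that differed at 2 or more bases were 6 of 7, 2 of 5, 1 of 1 and 3 of 4, 0 of 1 and 1 of 5 in S. pennellii pollen, and 0 of 1 and 2 of 3 in M82 pollen, where M82 is the only allele. The F1 shares lay above both S. pennellii libraries and on either side of M82 replicate 2, on 1 to 7 reads a library. The median number of substitutions was 2 in the 17 M82-specific reads of F1 pollen (1 to 3) 1 in the 6 of S. pennellii pollen (1 to 2) and 1.5 in the 4 of M82 pollen (1 to 3), which was not tested. The S. pennellii-specific reads had a median of 3 in both F1 pollen (38 reads) and S. pennellii pollen (19 reads). Bases were compared without gaps, and reads across an alignment gap reached 10 in F1 and 9 in S. pennellii pollen.

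M82 pollen held 4 sequences, each with 1 read, each of 24 nt and each matching M82 alone.
M82 replicate 1, forward, bases 84 to 107: aaaatcTactattgtctgaagacg
M82 replicate 2, reverse, bases 80 to 103: ttcagacaatagtAgattttTatt
M82 replicate 2, forward, bases 109 to 132: atGatatagtcacttgtcCttaTt
M82 replicate 2, forward, bases 391 to 414: taGccaatattgtatttccatgtt
The first 3 lay in the densest M82 stretch, from base 80 to 132, but that stretch was chosen with these reads included. The second lay opposite the first, on the other strand. The fourth overlapped the M82-specific sequences of S. pennellii pollen at bases 389 to 415. None of the 4 was found in F1 or S. pennellii pollen, and the second had 2 reads each in F1 flower replicates 1 and 3. F1 and M82 pollen shared 0 sequences, as did S. pennellii and M82 pollen.

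Of the 22 comparisons of totals, sizes, strands, positions and alleles, 0 passed an adjusted p of 0.05. With these numbers of libraries none could, even if each comparison reached its smallest p. An unadjusted p below 0.05 was found in 1, the forward share in F1 pollen against F1 flowers. Groups did not overlap in 12 of the 22. These include every comparison with M82 pollen, whose measures all rest on the same 1 and 3 reads and so are not separate results. For groups without overlap the exact permutation test gave p = 0.133 with 4 against 2 libraries and p = 0.333 with 2 against 2. With 4 against 2 or 2 against 2 libraries the exact test cannot reach 0.05, so that the p-values between genotypes say little beyond whether the libraries overlapped.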

How the data were processed

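The sRNAs of M82, S. pennellii and F1 plants were sequenced on an Illumina instrument; the authors trimmed the reads with Trim Galore, mapped them to both parental H06 sequences with Bowtie 1.1.1 (0 mismatches, every match reported) and deposited raw counts of the matching sequences per library. The study gives only a rounded library size and the tables hold no depths, so counts were not normalised, and tables hold H06 alone, so the purity of the pollen could not be checked. Of 24 library columns, 2 were not used, since their names match no sample, which left S. pennellii flowers with 1 library. No 2 pollen libraries held the same set of sequences.

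Each sequence was counted once per library, whichever H06 sequence it matched. The parental sequences were aligned with Biopython 1.88 (match 2, mismatch -1, gap opening -4, extension -0.5). Bases 61 to 120 of S. pennellii H06 were filled from deposited reads and their positions, and are printed only within reads that reach into them. Covered positions were counted on the alignment. Group means were compared by exact permutation tests, two-sided by doubling the smaller tail, with Benjamini-Hochberg adjusted p-values over 22 comparisons; the tests were checked on simulated data. Shares have Clopper-Pearson intervals (scipy 1.17.1). Named sequences were those in 2 or more pollen libraries, those of 23-24 nt with the most reads per genotype, all in M82 pollen, and those in S. pennellii pollen matching M82 alone. Members, lists and tests were chosen with earlier results of these data known. Alternatives left out 1 library, paired replicate numbers, or changed the sizes, counting, scale or H06 sequence.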

Additional observations from a re-analysis of the deposited data

Results flagged for a closer look

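The share of H06 reads of 24 nt in F1 pollen replicate 2 was 70.8%, far from the 37.5, 40.0 and 40.0% of the other 3 F1 pollen libraries. It was the F1 library with the most reads, 24, and its 95% interval was 48.9 to 87.4%. This was 1 of 12 groups screened, and chance flags about 1 in 20 groups.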

How the results depend on the processing

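Of 238 alternative values of the 22 comparisons, 0 crossed the threshold on adjusted p, but with these numbers of libraries none could. By sign, 216 kept that of the main value and 10 changed it. A further 11 belong to the reads of 23-24 nt in F1 against S. pennellii pollen, whose difference was 0 and which ran from -3.67 to 2 without 1 library and was -2.25 for 24 nt alone, and 1 became 0, the covered positions of F1 against M82 pollen on the M82 sequence alone. The difference in reads between F1 and S. pennellii pollen (0.25) was -0.75 when each match was counted, -1 for distinct sequences and -0.16 on the scale of log2(reads + 1), and it ran from -3.17 to 3.17 when 1 library was left out. Between F1 pollen and F1 flowers, the difference in reads of 23-24 nt ran from -1.67 to 4 when 1 library was left out. That in covered positions ran from -11.0 to 19.3 when 1 library was left out. It was -59.5 on the M82 sequence alone and 45.75 on the S. pennellii sequence alone. The labels give no plant shared between pollen libraries of different genotypes or between tissues, and with 1 locus the pairing by number could not be checked. With replicate number as a block, the difference from F1 flowers stayed 27.3 points for the forward share (exact permutation test, p = 0.125, the smallest that 4 pairs allow). Over the shared numbers, F1 pollen had 18 reads more than M82 pollen and 6.50 more than S. pennellii pollen (exact permutation test, p = 0.5 for each, the smallest that 2 pairs allow). These pairs hold F1 replicates 1 and 2, with 16 and 24 reads, and leave out replicates 3 and 4, with 5 and 10. Counts of 1 and 3 reads in M82 pollen limit every share given for it.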
